A study of Mus musculus with 20 samples.

Results

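The cytosolic heat-shock chaperones were followed as 10 genes across CD8+ T cells taken from treated mouse tumours. They were chosen by symbol, with earlier results of these data known. Every one was found among the 45777 gene symbols of the deposited table. The 10 are Hspa1a, Hspa1b and Hspa8 of the HSP70 family, Hsph1 and Hspa4 of the HSP110 family, Hsp90aa1 and Hsp90ab1 of the HSP90 family, the J-domain co-chaperones Dnajb1 and Dnaja1, and Hsf1, the transcription factor that switches the inducible members on. All 10 passed the filter on low values (at least 1 FPKM in at least 5 libraries), as did 11794 genes in all.

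Tumours of MC38, a colon carcinoma line of the mouse that here overexpressed human PD-L1, were grown in C57BL/6 mice whose genotype is given as hPD-1/hPD-L1/h4-1BB in every group. Mice were randomised when tumours averaged 150 to 200 mm3, and on day 4 after treatment the CD8+ T cells inside the tumours were sorted and sequenced in bulk. The 4 groups of 5 libraries were Control, Pembrolizumab, ABL503, and the Combination of ABL503 with pembrolizumab. Pembrolizumab is an antibody that blocks human PD-1, ABL503 is a bispecific antibody that binds human PD-L1 and human 4-1BB, and what Control mice received is not in the labels. The sex and age of the mice, the doses, and whether each library came from a separate mouse are not given either, so every p-value here measures the spread between these libraries, which may be technical.

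Cytosolic chaperones keep proteins folded through cycles of ATP binding and hydrolysis. A J-domain protein such as Dnajb1 or Dnaja1 delivers an unfolded client to HSP70 and triggers its ATP hydrolysis, an HSP110 protein such as Hsph1 exchanges the nucleotide so that the client is released, and HSP90 takes over clients such as kinases and receptors. HSF1 is held inactive by chaperones in unstressed cells, and when misfolded protein accumulates it forms trimers that bind repeats of nGAAn in the promoters of the inducible members. Activated T cells, which make protein at a high rate, are known to raise several of these chaperones.

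Promoters are shown for the 3 members with the largest changes described below, a choice made from these data. They are among the textbook targets of HSF1, though not the only inducible members. A link between their promoter sequences and their changes was not tested. RefSeq's GRCm38.p6 gene models gave promoter windows (250 bases before to 50 bases after an annotated start) for 6 of the 10 members, and Hspa8, Hsp90aa1, Hsp90ab1 and Hsf1 were not among them. Each window was searched for a pair of inverted units, GAANNTTC or TTCNNGAA, and for the 3-unit arrays GAANNTTCNNGAA and TTCNNGAANNTTC. Each form of the pair reads the same on both strands, and each 3-unit form is the reverse complement of the other and contains overlapping pairs. Capitals mark the matched letters, and sequences run 5′ to 3′ on the gene's strand.
Hspa1a, minus strand, chr17:34972107-34972406: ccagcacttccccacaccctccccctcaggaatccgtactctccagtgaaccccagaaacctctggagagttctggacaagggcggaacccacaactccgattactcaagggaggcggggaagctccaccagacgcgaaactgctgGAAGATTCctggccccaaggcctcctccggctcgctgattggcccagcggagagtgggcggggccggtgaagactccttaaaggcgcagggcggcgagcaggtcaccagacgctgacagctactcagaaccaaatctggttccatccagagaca
Hspa1b, minus strand, chr17:34959189-34959488: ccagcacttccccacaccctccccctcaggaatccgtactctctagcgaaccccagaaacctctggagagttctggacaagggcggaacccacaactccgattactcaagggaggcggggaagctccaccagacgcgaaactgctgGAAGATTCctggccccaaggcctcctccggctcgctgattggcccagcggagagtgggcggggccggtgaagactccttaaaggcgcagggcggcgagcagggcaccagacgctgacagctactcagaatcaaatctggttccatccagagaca
Hsph1, minus strand, chr5:149636287-149636586: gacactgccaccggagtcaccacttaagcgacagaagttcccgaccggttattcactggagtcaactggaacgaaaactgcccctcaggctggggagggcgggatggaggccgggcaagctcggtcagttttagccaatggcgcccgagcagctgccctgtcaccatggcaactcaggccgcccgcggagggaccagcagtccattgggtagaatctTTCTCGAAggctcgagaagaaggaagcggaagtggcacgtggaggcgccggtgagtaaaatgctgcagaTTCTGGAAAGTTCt

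Hspa1a and Hspa1b are neighbouring copies, and their windows carried the same letter at 296 of 300 positions (98.7%). Each held 1 pair match, which began 104 bases before the start. The Hsph1 window, 1 of 2 that RefSeq gives, held 3 pair matches, at 33 bases before the start and at 36 and 41 bases after it, and the latter overlapped to form a 3-unit array. Of 32851 windows of this length, 15.1% held a pair, 0.256% held 3 or more and 0.603% held a 3-unit array. Dnaja1 had 1 pair in 1 of its windows, and the windows of Dnajb1 and Hspa4 had none. A match is a description of letters and no measurement of binding.

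The deposited values were judged to be FPKM, fragments scaled by gene length and library size, and their sums per library ran from 575918 to 654333. Depth is unknown. Changes are differences of mean log2(FPKM + 1), which understate the change of genes with low values such as Hspa1a. Cd8a averaged 279 to 377 FPKM across the groups and Cd3e 225 to 275, while Cd4 averaged at most 0.398 and the collagen gene Col1a1 at most 0.0184 in any group. Antigen-presentation genes (6 listed) were present and varied, and their summed level ran from 136 to 446 FPKM among Control libraries, from 38.4 to 154 with Pembrolizumab, from 103 to 277 with ABL503 and from 31.2 to 59.2 with both. Control 1 and ABL503 3 had the lowest array weights of the fit (0.513 and 0.589), and Pembrolizumab 5 was the highest library of its group for 9 of the 10 chaperones. The 3 treated groups were compared with the same 5 Control libraries, so those comparisons are not independent of each other.

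The chaperones spanned a wide range of levels per length. Over all 20 libraries Hspa8 averaged 1677 FPKM, Hsp90ab1 927 and Hsp90aa1 727.9. Dnaja1 (222.3) and Dnajb1 (104.6) formed the middle of the order, followed by Hsph1 (42.3), Hspa4 (33.2) and Hsf1 (12.0). The inducible HSP70 genes were the lowest, at 6.90 FPKM for Hspa1b and 5.36 for Hspa1a. Ranges over the 20 libraries did not meet between Hsp90aa1 and Dnaja1, between Dnaja1 and Dnajb1, and between Hspa4 and Hsf1. The ranges of all other neighbours in this order overlapped.

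**Figure D1:**
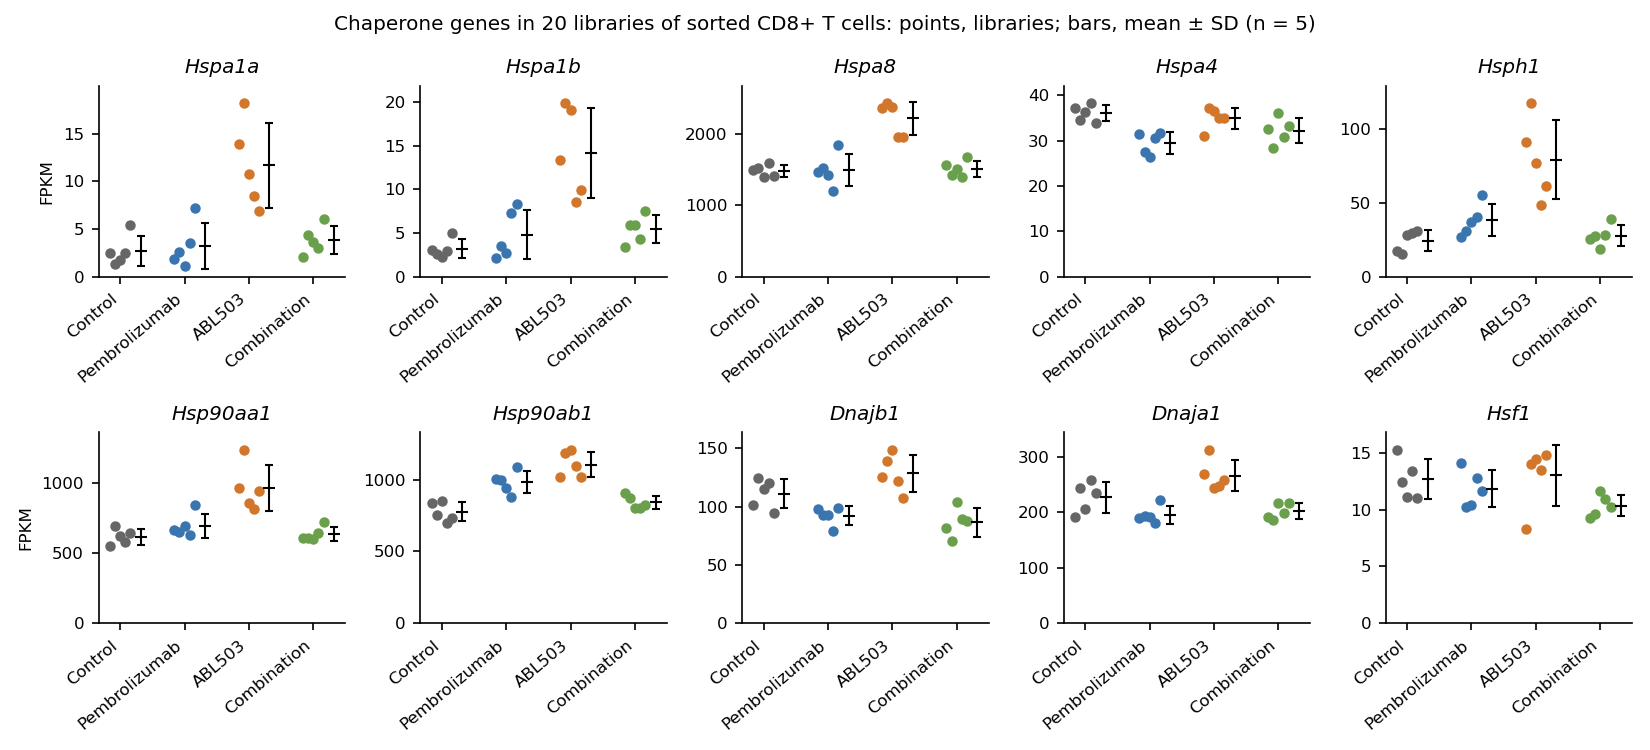
FPKM of the 10 chaperone genes in each of the 20 libraries, with a linear axis from 0 in each panel. Points are libraries in order of their number, and bars are the mean and SD of 5 libraries. ABL503 libraries lie above every Control library for Hspa1a, Hspa1b, Hspa8, Hsph1, Hsp90aa1 and Hsp90ab1.

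After ABL503, 6 of the 10 chaperones rose against Control and none fell. The inducible HSP70 genes and Hsph1 rose by 3.12- to 3.53-fold on the log2(FPKM + 1) scale, and the abundant Hspa8, Hsp90aa1 and Hsp90ab1 rose by 1.42- to 1.55-fold. Only 0.619% of all genes tested passed in this comparison (0.585% upward). The ranges of the 6 lay wholly above Control, which held for 1.7% of all genes. The 10 members had a median change of 0.54, beside -0.01 over all genes tested. Since the members were chosen with earlier results of these data known, these shares describe the list and are no independent support. In bulk RNA, fewer cells of a type and less RNA per cell cannot be told apart, and the same holds for a rise.

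The inducible HSP70 genes were scarce in Control and higher in every ABL503 library. Hspa1a (chromosome 17, 34969359 to 34972156, minus strand) stood at 2.50, 1.32, 1.75, 2.49 and 5.37 FPKM in Control libraries 1 to 5. In ABL503 libraries 1 to 5 it stood at 13.9, 18.2, 10.8, 8.47 and 6.90 FPKM. Control and ABL503 did not overlap, although Control 5 came close to ABL503 5. The mean went from 2.69 ± 1.58 FPKM (SD, n = 5, as for every mean below) to 11.7 ± 4.5, a log2 change of 1.80 (SE 0.33, adjusted p = 0.0106). Hspa1b (chromosome 17, 34956429 to 34959238, minus strand) stood at 3.07, 2.65, 2.28, 2.94 and 5.02 FPKM in Control and at 13.4, 19.9, 19.1, 8.58 and 9.90 in ABL503. Its groups were further apart, and it rose by 1.82 (SE 0.29, adjusted p = 0.00372). These copies share sequence: 47.1% of the 100-base windows of Hspa1a transcripts (1350 of 2868) and 49.9% of those of Hspa1b (1350 of 2704) are also in the other, in GENCODE vM21. How the authors' counting split such reads is not given, so the values of either copy are uncertain. Summed as 1 gene, a step added after the data were seen, the pair averaged 5.88 ± 2.63 FPKM in Control and 25.8 ± 9.03 in ABL503, a rise of 1.97 (SE 0.33, adjusted p = 0.00477). Hspa1a also overlaps the opposite-strand gene model Gm20481, and the library kit does not mark strand.

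Hspa8, the constitutive HSP70 that folds new proteins in every cell, was the most abundant member and rose as well. Its Control libraries stood at 1501, 1521, 1390, 1587 and 1410 FPKM, and its ABL503 libraries at 2367, 2430, 2375, 1964 and 1954. The lowest ABL503 library was above the highest Control library by more than the Control range. The mean went from 1482 ± 81.5 to 2218 ± 237.6 FPKM, a log2 change of 0.58 (SE 0.10, adjusted p = 0.00477). The locus (chromosome 9, 40801276 to 40805202, plus strand) also holds 3 small nucleolar RNA genes on the same strand. In FPKM, the gain of Hspa8 was larger than that of any other member.

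Hsph1, the nucleotide exchange factor of the HSP110 family, showed the smallest p among the members (rank 6 of 11794 genes). On chromosome 5 (149616843 to 149636498, minus strand), it stood at 17.6, 15.6, 28.5, 29.5 and 30.8 FPKM in Control. In ABL503 its libraries stood at 91.4, 117, 76.8, 48.3 and 61.5 FPKM, all above Control. The change was 1.64 (SE 0.24, adjusted p = 0.00269), from 24.4 ± 7.21 to 79.1 ± 26.8 FPKM. Hspa4, the constitutive relative of Hsph1 (chromosome 11, 53259814 to 53300479, minus strand), did not pass. It averaged 36.0 ± 1.77 FPKM in Control and 34.9 ± 2.35 in ABL503, a difference of -0.05 with a 95% interval of -0.21 to 0.12.

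Both cytosolic HSP90 genes rose. Hsp90aa1, the stress-inducible isoform (chromosome 12, 110691036 to 110696395, minus strand), stood at 549, 691, 624, 576 and 641 FPKM in Control. Its ABL503 libraries stood at 961, 1236, 855, 815 and 943 FPKM, with library 2 well above the others. That amounted to a log2 change of 0.63 (SE 0.10, adjusted p = 0.00477). Hsp90ab1, the constitutive isoform (chromosome 17, 45567778 to 45573261, minus strand), stood at 839, 756, 852, 702 and 734 FPKM in Control and at 1022, 1185, 1209, 1096 and 1017 in ABL503. Every ABL503 library of Hsp90ab1 was above every Control library, and it rose by 0.51 (SE 0.08, adjusted p = 0.00311).

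The J-domain proteins and the regulator did not pass. Dnajb1, an inducible partner of HSP70 (chromosome 8, 83608175 to 83612653, plus strand), stood at 101, 124, 115, 120 and 94.7 FPKM in Control and at 125, 139, 149, 122 and 108 in ABL503. The groups overlapped, and the difference was 0.21 (SE 0.11, adjusted p = 0.5). Dnaja1 (chromosome 4, 40722468 to 40734965, plus strand) averaged 227 ± 27.4 and 266 ± 27.8 FPKM, a difference of 0.23 (SE 0.09, unadjusted p = 0.0185 and adjusted p = 0.323 by limma). Hsf1 itself (chromosome 15, 76477362 to 76501155, plus strand) averaged 12.7 ± 1.76 FPKM in Control and 13.0 ± 2.69 in ABL503. Its difference was 0.02, with a 95% interval of -0.26 to 0.31. The level of its mRNA is not a readout of HSF1 activity, which is set largely on the protein.

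Hspa1b, Hspa8, Hsph1, Hsp90aa1 and Hsp90ab1 passed under all 18 alternatives tried for this comparison. Hspa1a lost the call without the filter on low values (adjusted p = 0.0533) and without Control 1 and ABL503 3 together (adjusted p = 0.0586). No gene of the marker lists for other cell types passed here (the macrophage list had a median of -0.62 and the antigen-presentation list -0.05). Summed over the 10 macrophage genes, Control libraries held 14.4 to 117 FPKM and ABL503 libraries 24.7 to 60.8. Of these, Cd68 averaged 18.9 ± 5.59 and 23.0 ± 8.27 FPKM, Lyz2 18.8 ± 26.3 and 17.2 ± 14.5, and Csf1r and Adgre1 at most 0.157. The neutrophil gene S100a9 was listed at 0 in all Control libraries and ran from 0 to 10.5 FPKM in ABL503, with a median of 0.22. The part of these cells in the chaperone difference was not tested.

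**Figure D2:**
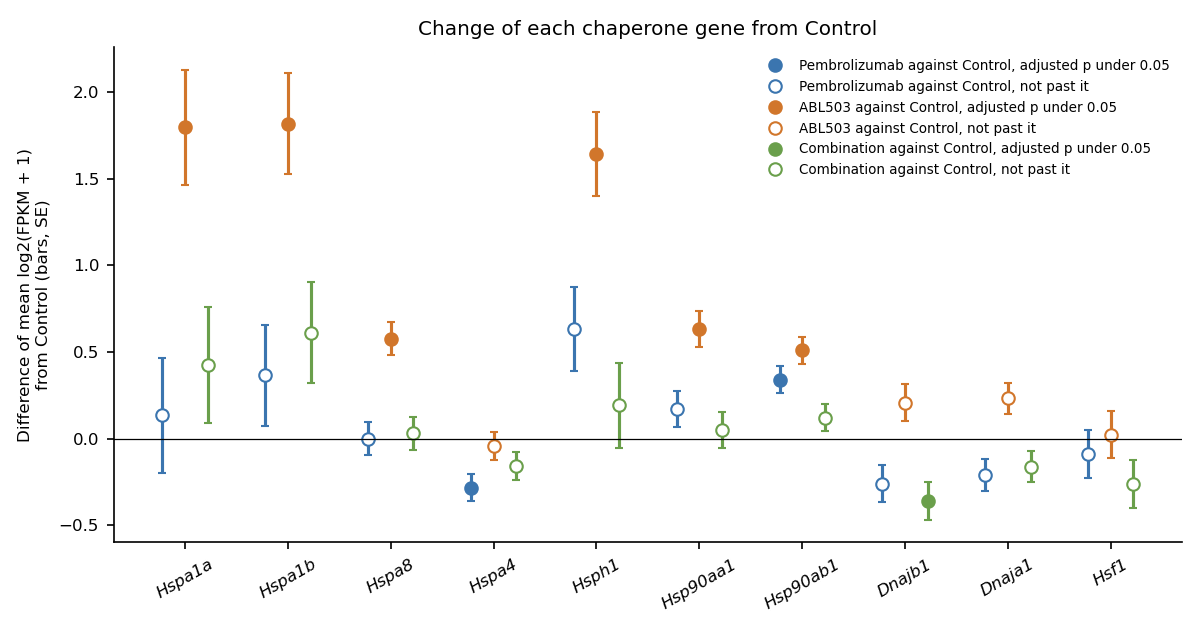
Difference of mean log2(FPKM + 1) from Control for each chaperone gene after Pembrolizumab, ABL503 and the Combination. Points are differences with bars of 1 SE from the fit over all genes, and filled points passed an adjusted p of 0.05. The 6 filled ABL503 points lie between 0.51 and 1.82, against 2 filled points for Pembrolizumab and 1 for the Combination.

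Pembrolizumab alone moved 2 members against Control, in opposite directions, where 5.55% of all genes passed. Hsp90ab1 rose by 0.34 (SE 0.08, adjusted p = 0.0135), with libraries at 1004, 998, 945, 880 and 1091 FPKM that all lay above Control. Hspa4 fell by 0.28 on the log2 scale (SE 0.08, adjusted p = 0.0422), with libraries at 31.4, 27.4, 26.5, 30.6 and 31.6 FPKM that all lay below it. These were the only members without overlap, against 6.12% of all genes. Hsph1 stood at 26.9, 31.1, 37.3, 40.3 and 55.2 FPKM, overlapped Control, and differed by 0.63 (SE 0.24, adjusted p = 0.137). Hspa8 differed by 0.00 (95% interval -0.20 to 0.20). Hspa1a averaged 3.26 ± 2.41 FPKM and Hspa1b 4.81 ± 2.83, with Pembrolizumab 5 the highest library for both (7.23 and 8.31 FPKM). The median over the members was 0.07, beside -0.03 over all genes. The Hspa4 call was lost in 9 of 10 fits that left out a library, up to an adjusted p of 0.109 without Pembrolizumab 3, the exception being the fit without Control 5. The Hsp90ab1 call was lost with quantile normalization (0.22, adjusted p = 0.137) and with only the groups compared (adjusted p = 0.0567). Cd74 fell here by 1.42 on the log2 scale (adjusted p = 0.0139), as 1 of 5 tested antigen-presentation genes. Il2ra rose by 1.05 (adjusted p = 0.00568), as 1 of 2 tested genes of CD4 and regulatory T cells, and no CD8 T-cell gene passed. The part of these markers in the chaperone values was not tested.

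In the Combination, 1 member passed against Control where 12.6% of all genes did. Dnajb1 fell by 0.36 on the log2 scale (SE 0.11, adjusted p = 0.0319), with libraries at 81.9, 70.1, 104, 89.1 and 87.6 FPKM. Combination 3, its highest library, overlapped Control. Of the genes that rose after ABL503, Hsph1 differed from Control by 0.19 (95% interval -0.32 to 0.70), Hspa8 by 0.03 (-0.17 to 0.23) and Hsp90aa1 by 0.05 (-0.17 to 0.27). Hspa1b averaged 5.43 ± 1.61 FPKM and differed by 0.61 (SE 0.29, adjusted p = 0.175), with a 95% interval of 0.0038 to 1.22. Hspa1a differed by 0.43 (-0.27 to 1.12) and Hsp90ab1 by 0.12 (-0.04 to 0.28). None of the members had ranges apart from Control, where 8.84% of all genes did, and the median was 0.04 beside -0.04 over all genes. The Dnajb1 call was lost in 6 of 10 fits that left out a library (Control 2, 3 or 4, or Combination 1, 2 or 5), up to an adjusted p of 0.0997 without Combination 2. In this comparison 4 of 5 tested antigen-presentation genes fell, Cd74 by 1.91 on the log2 scale (adjusted p = 0.000875), and Epcam fell by 0.86 (adjusted p = 0.0339). Cd8a, as 1 of 6 CD8 T-cell genes, rose by 0.43 (adjusted p = 0.0134). Il2ra, as 1 of 2 tested genes of CD4 and regulatory T cells, rose by 0.83 (adjusted p = 0.0121). The part of these markers in the chaperone values was not tested.

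Set directly against ABL503, the Combination had lower levels of 8 of the 10 chaperones. All 8 fell past the threshold, and the ranges of all 8 lay wholly below those of ABL503. For comparison, 4.53% of all genes passed (2.24% downward) and 2.74% had ranges wholly below. Hsph1 fell by 1.45 (SE 0.24, adjusted p = 0.00226), with Combination libraries at 25.3, 27.4, 18.7, 28.2 and 38.7 FPKM. The highest of these, Combination 5, was still below the lowest ABL503 library at 48.3. Hspa1a fell by 1.37 (SE 0.33, adjusted p = 0.0224), with libraries at 2.10, 4.41, 3.59, 3.0 and 6.03 FPKM. Hspa1b fell by 1.21 (SE 0.29, adjusted p = 0.0218), with libraries at 3.43, 5.89, 5.96, 4.29 and 7.57 FPKM. As 1 summed gene the inducible HSP70 copies fell by 1.37 (SE 0.33, adjusted p = 0.0199).

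The abundant chaperones were lower in the Combination too. Hspa8 fell by 0.55 (SE 0.10, adjusted p = 0.00349), with libraries at 1561, 1427, 1510, 1397 and 1673 FPKM. Hsp90aa1 fell by 0.58 (SE 0.10, adjusted p = 0.00397) and Hsp90ab1 by 0.39 (SE 0.08, adjusted p = 0.00629). Dnajb1 and Dnaja1, which did not pass for ABL503 against Control, fell by 0.57 (SE 0.11, adjusted p = 0.00517) and 0.39 (SE 0.09, adjusted p = 0.0158). Dnajb1 averaged 86.5 ± 12.1 FPKM in the Combination against 128 ± 15.9 in ABL503. Hspa4 (-0.12, adjusted p = 0.438) and Hsf1 (-0.29, adjusted p = 0.247) did not pass. The median over the members was -0.56, beside -0.03 over all genes.

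This comparison uses the same ABL503 libraries as that of ABL503 with Control. Without ABL503 2, the highest library of its group for 7 of 10 members, 5 members passed: Hspa1a (-1.20, adjusted p = 0.0691), Hspa1b (-1.07, adjusted p = 0.0681) and Dnaja1 (-0.34, adjusted p = 0.0537) were lost. The call of Hspa1b was also lost without ABL503 3 (0.0596) or Combination 1 (0.0562), that of Hspa1a without Combination 1 (0.0575), and Hsf1 gained one without ABL503 1 (-0.43, adjusted p = 0.0298). Every marker of other cells that passed here was lower in the Combination, where 2.24% of all genes passed downward. Of 5 tested antigen-presentation genes 2 passed: Cd74 fell by 2.02 (adjusted p = 0.00177) and H2-Aa fell by 2.52 (adjusted p = 0.0146). The epithelial gene Epcam fell by 1.17 (adjusted p = 0.0128), as 1 of 2 tested carcinoma genes. No gene passed in the lists of macrophages (median -0.05), B cells (-0.30), CD4 and regulatory T cells (0.31) and endothelium (0.24). Summed over the 10 macrophage genes, ABL503 libraries held 24.7 to 60.8 FPKM and Combination libraries 20.2 to 38.4, with Csf1r at 0 in every Combination library. The 4 carcinoma genes summed to 5.28 to 9.88 and 2.38 to 3.83 FPKM. The part of these cells in the chaperone difference was not tested.

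ABL503 was also compared with Pembrolizumab, the other single agent, and 7 members were higher where 1.28% of all genes passed (0.865% upward). Hspa8 was higher by 0.58 (SE 0.10, adjusted p = 0.00564) and Dnaja1 by 0.44 (SE 0.09, adjusted p = 0.018). Hspa1a was higher by 1.67 (SE 0.33, adjusted p = 0.0162) and Hspa1b by 1.45 (SE 0.29, adjusted p = 0.0162). Hsph1 (1.01, adjusted p = 0.044), Hsp90aa1 (0.46, adjusted p = 0.0345) and Dnajb1 (0.47, adjusted p = 0.0367) passed closer to the threshold. Hsp90ab1, which had risen in each single-agent group against Control, differed by 0.17 (SE 0.08, adjusted p = 0.34). Ranges stood apart for Hspa1b, Hspa8, Dnajb1 and Dnaja1 (2.55% of all genes), and the other 3 overlapped at Pembrolizumab 5. Across the fits that left out a library the count ran from 1 to 7, and each of them except that without Pembrolizumab 5 lost at least 1 call. Without ABL503 2, and equally without Pembrolizumab 1, only Hspa8 passed, and Hsph1 stood at 0.85 (adjusted p = 0.137) and 0.90 (adjusted p = 0.118). Cd74 was higher by 1.53 in ABL503 here (adjusted p = 0.0224), as 1 of 5 tested antigen-presentation genes, and its part was not tested.

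The design also allows the effect of ABL503 to be compared without and with pembrolizumab. With pembrolizumab present, adding ABL503 moved no member past the threshold by limma (0 of 10, and 1 of 10 at an unadjusted p under 0.05, where 0.161% of all genes passed). Hsp90ab1 was the lowest in p, at -0.22 (SE 0.08, adjusted p = 0.221). Hsph1 differed by -0.44 (95% interval -0.95 to 0.06), Hspa1a by 0.29 (-0.40 to 0.99) and Hspa8 by 0.03 (-0.17 to 0.23). The difference between the effects was then tested directly, as an interaction: the step from ABL503 to the Combination, less the step from Control to Pembrolizumab.

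The interaction passed for 3 members, all negative, where 0.203% of all genes passed. Hsph1 had the largest value, -2.09 (SE 0.34, adjusted p = 0.0119): its group means were 24.4 FPKM for Control, 38.2 for Pembrolizumab, 79.1 for ABL503 and 27.7 for the Combination. Hsp90ab1 had -0.73 (SE 0.11, adjusted p = 0.00461), from group means of 777, 983, 1106 and 842 FPKM in the same order. Hsp90aa1 had -0.75 (SE 0.15, adjusted p = 0.0344), from 616, 696, 962 and 638 FPKM. Each of the 3 was higher in both single-agent groups than in Control in its mean, and lower in the Combination than in either. The inducible HSP70 genes had values of similar size but larger errors and did not pass, at -1.51 (SE 0.47, adjusted p = 0.219) for Hspa1a and -1.57 (SE 0.41, adjusted p = 0.126) for Hspa1b. Hspa8 (-0.55, adjusted p = 0.101) did not pass either, and the median over the members was -0.64 beside 0.00 over all genes. Hsp90ab1 passed in all 27 alternatives, whereas Hsph1 was lost without the filter (adjusted p = 0.063) and without Control 1 and ABL503 3 (adjusted p = 0.0607). Hsp90aa1 was lost in 14 of 20 fits that left out a library (all but those without Control 2, Pembrolizumab 2 or 4, ABL503 3 or 4, or Combination 5), up to an adjusted p of 0.0794 without Combination 3, and Hspa8 gained a call without Pembrolizumab 4 (-0.62, adjusted p = 0.0348).

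**Figure D3:**
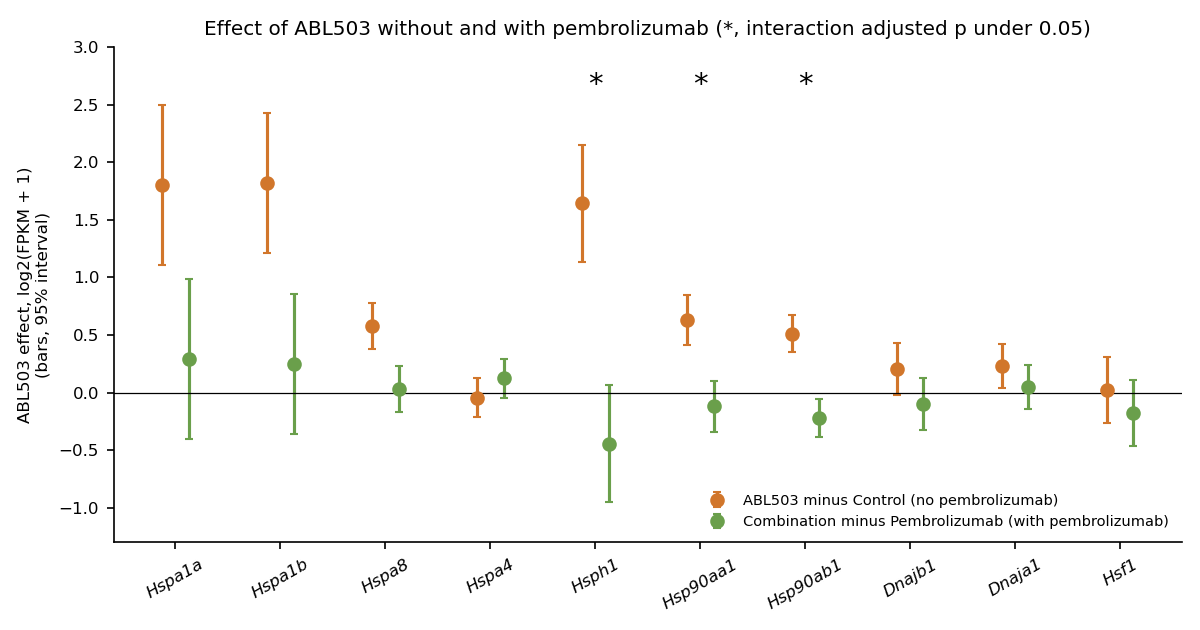
Effect of ABL503 on each chaperone gene, as a difference of mean log2(FPKM + 1) with its 95% interval, without pembrolizumab (ABL503 minus Control) and with it (Combination minus Pembrolizumab). Asterisks mark the 3 genes whose interaction passed an adjusted p of 0.05. The intervals with pembrolizumab include 0 for every gene but Hsp90ab1.

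Inducible and constitutive members of a family were also compared within each library, as a ratio of FPKM. Over 9 exact two-sided permutation tests, the smallest p that 5 against 5 libraries can give is 0.007937. The sum of Hspa1a and Hspa1b over Hspa8 was 0.004 ± 0.00193 in Control and 0.0114 ± 0.00295 in ABL503, a log2 difference of 1.58 (exact permutation p = 0.007937, adjusted p = 0.0357). In every library of every group, the constitutive form was far more abundant. In the Combination the ratio was 0.00609 ± 0.00178 (0.66, exact permutation, adjusted p = 0.214). Hsph1 over Hspa4 went from 0.678 ± 0.203 in Control to 2.27 ± 0.760 in ABL503 (1.73, exact permutation, adjusted p = 0.0357), and every ABL503 library had more Hsph1 than Hspa4, where every Control library had less. In Pembrolizumab it was 1.29 ± 0.330 (0.95, exact permutation, adjusted p = 0.0476), and in the Combination 0.868 ± 0.240 (0.36, exact permutation, adjusted p = 0.274). Without any 1 of 8 of the 10 libraries, the Pembrolizumab ratio missed the threshold at an adjusted p of 0.0714, the exceptions being Control 5 and Pembrolizumab 1. Hsp90aa1 over Hsp90ab1 was 0.799 ± 0.105 in Control and 0.872 ± 0.142 in ABL503 (0.12, exact permutation, adjusted p = 0.51), and passed in no group.

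**Figure D4:**
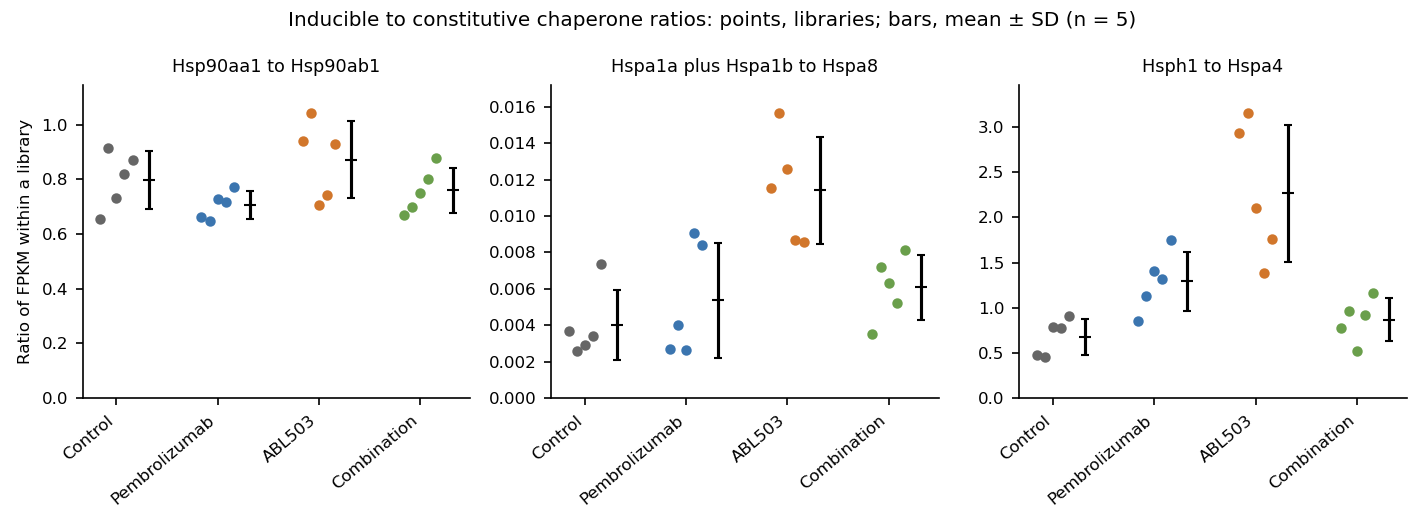
Ratio of FPKM of inducible to constitutive chaperone genes within each library, on linear axes from 0. Points are libraries and bars the mean and SD of 5. Hsph1 exceeds Hspa4 in all 5 ABL503 libraries and in none of the Control libraries, while the HSP90 ratio overlaps between all groups.

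Other genes of the folding and stress pathways were read from lists of partners and neighbours. After ABL503, where 0.619% of all genes passed, 2 of 24 co-chaperones of HSP70 and HSP90 rose against Control. They were Ahsa1 (0.51, SE 0.12, adjusted p = 0.0423) and Ahsa2 (0.64, SE 0.14, adjusted p = 0.0423), which stimulate the HSP90 ATPase. Ahsa1 averaged 59.9 ± 8.93 FPKM in Control and 85.5 ± 8.43 in ABL503. The mitochondrial list had 2 of 12 members rise, Hspd1 (1.06, SE 0.14, adjusted p = 0.00141) and Hspe1 (1.00, SE 0.19, adjusted p = 0.014), the HSP60 and HSP10 that form the mitochondrial folding chamber. From Control to ABL503 the mean of Hspd1 went from 63.1 ± 6.29 to 135 ± 29.8 FPKM, with Pembrolizumab at 90.5 ± 13.9 and the Combination at 81.8 ± 10.1. These are known targets of HSF1 as well, and a part of HSF1 in their change was not tested.

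No gene passed in the other lists for ABL503 against Control. That covered 12 further cytosolic J-domain proteins, 14 subunits of the CCT ring and prefoldin (Tcp1, 0.37, adjusted p = 0.053), 22 genes of the endoplasmic reticulum and its unfolded protein response (Pdia4, 0.61, adjusted p = 0.0745) and 10 genes of oxidative and metal stress. Among 6 further HSP70, HSP110 and small heat-shock genes, Hspa4l differed by 0.77 (adjusted p = 0.167). Hspb1, the small heat-shock protein HSP27, averaged 6.83 ± 6.46 FPKM in Control and 35.0 ± 24.5 in ABL503, a difference of 2.41 between widely spread libraries (SE 0.74, adjusted p = 0.192). Hsf2, a relative of Hsf1, differed by 0.73 (adjusted p = 0.272). Immediate early genes, which respond within minutes to stimulation and to tissue dissociation, had 0 of 19 past the threshold (median -0.19), with summed levels of 2730 to 3650 FPKM in Control and 2670 to 3610 in ABL503.

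In the Combination against ABL503, Hspd1 (-0.70, adjusted p = 0.00555) and Hspe1 (-0.95, adjusted p = 0.00751) fell, as did 2 of 22 genes of the endoplasmic reticulum: Hspa5, its HSP70 (-0.40, adjusted p = 0.00739), and Xbp1, a factor of its stress response (-0.35, adjusted p = 0.0452). Over all genes, 4.53% passed in that comparison (2.24% downward). None of the 24 co-chaperones passed, with Ahsa1 at -0.36 (adjusted p = 0.0788). The interaction passed for Hspd1 (-1.20, adjusted p = 0.00884) and Hspe1 (-1.43, adjusted p = 0.0337). After Pembrolizumab, where 5.55% of all genes passed, Hspd1 rose against Control by 0.51 (adjusted p = 0.0331), as 1 of 12 on the mitochondrial list. The J-domain genes Dnaja2 (-0.42, adjusted p = 0.00445) and Dnajb6 (-0.30, adjusted p = 0.0162) fell, 2 of 12 on their list. In the Combination against Control, 3 of 24 co-chaperones rose, a share near the 12.6% of all genes that passed there: Cdc37, which brings kinases to HSP90 (0.58, adjusted p = 0.0124), Sugt1 (0.33, adjusted p = 0.0395) and Aarsd1 (0.54, adjusted p = 0.0401). Dnaja2, as 1 of 12 further J-domain genes, fell there by 0.24 on the log2 scale (adjusted p = 0.0481), and Hspb11, as 1 of 6 further heat-shock genes, rose by 0.54 (adjusted p = 0.0319).

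**Figure D5:**
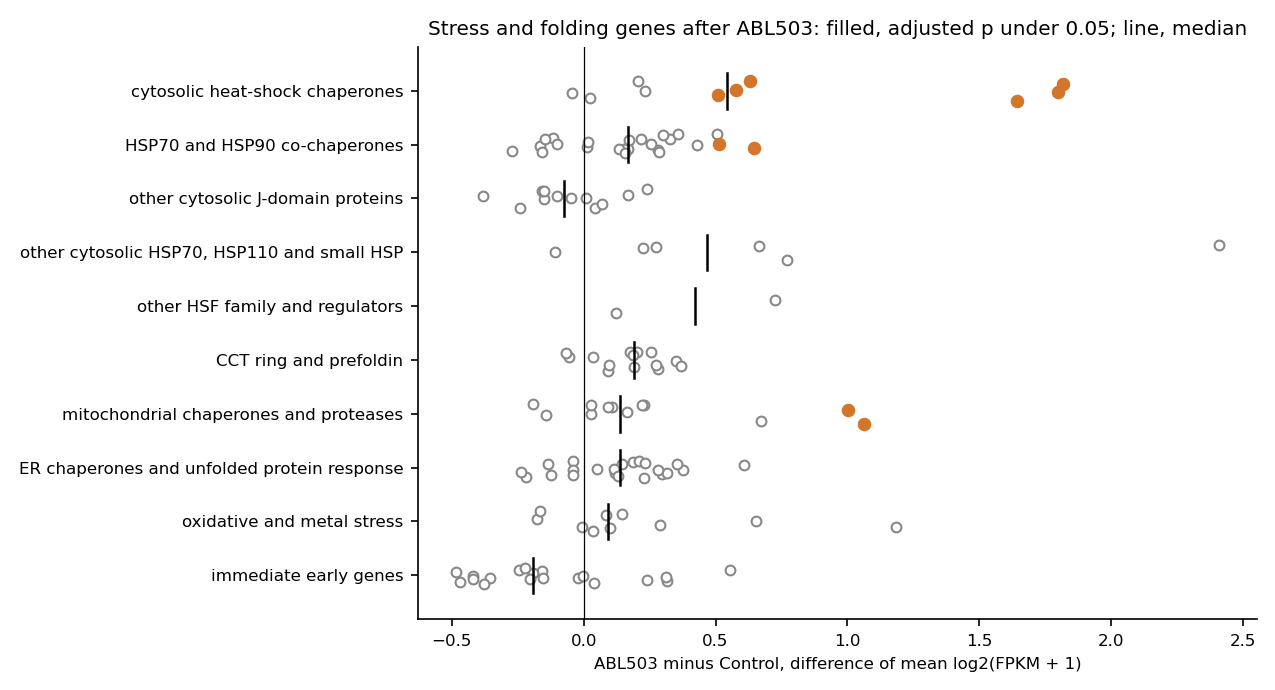
Difference of mean log2(FPKM + 1), ABL503 minus Control, for each tested gene of the 10 lists of chaperone and stress genes. Each circle is a gene, filled where the adjusted p was under 0.05, and the short vertical line is the median of its list. The filled circles are 6 cytosolic chaperones, Ahsa1, Ahsa2, Hspd1 and Hspe1.

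The genes with the pattern most like that of the inducible members were ranked over the 20 libraries. The reference was the mean standardised log2 value of Hspa1a, Hspa1b, Hsph1 and Dnajb1, and the candidates were the 5045 genes outside the 10 members whose log2(FPKM + 1) averaged 3 or more, numbered or predicted models left out. The 6 with the highest Pearson correlation were Hspd1 (0.84), Hspe1 (0.81), Acsl4 (0.77), Rab11fip1 (0.76), Hspb1 (0.73) and Zc3h15 (0.71). After removal of the group means, so that only differences between libraries of the same group remained, the values were 0.61, 0.57, 0.53, 0.57, 0.52 and 0.50. Of the genes within the reference, Hspa1a had 0.94, Hspa1b 0.93 and Hsph1 0.91, and these kept 0.87, 0.88 and 0.80. Dnajb1 followed the reference less closely although it is part of it, at 0.66, and at 0.33 without group means. Among the members outside the reference, Hspa8 had 0.91, Hsp90aa1 0.89 and Dnaja1 0.79, and these kept 0.62, 0.61 and 0.61 without group means. Hsp90ab1 went from 0.69 to 0.18, Hspa4 stood at 0.34 and Hsf1 at 0.20. These correlations describe 20 libraries that share the groups' differences and their own composition, and carry no test.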

How the data were processed

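RNA of CD8+ T cells sorted from tumours was sequenced in 20 libraries, 5 per group, made with the SMART-Seq v4 kit per the labels' protocols. Per the submitters' processing notes, HISAT2 and StringTie were used with GRCm38 (mm10), and versions and annotation are not given in the sources used here. The authors deposited 1 value per gene symbol and library, taken here as FPKM because the values are not whole numbers and their sums differ between libraries. Read counts are not given, so depth is unknown and no counting interval can be had.

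The members and all gene lists were chosen with earlier results of these data known. A gene was tested, as log2(FPKM + 1), where 5 or more libraries held 1 FPKM or more. A model with a mean for each of the 4 groups (16 residual degrees of freedom) was fitted with limma 3.58.1 (R 4.3.3), its variances were moderated along an intensity trend, and Benjamini-Hochberg adjustment ran over all 11794 genes within a comparison. A gene passed at an adjusted p under 0.05, and all tests were two-sided. Ratios within libraries were tested by exact permutation. Besides the 10 members and the 6 genes most like the inducible members, the genes named were drawn from a selection within each list. It held up to 4 genes with the smallest p among those past the threshold, or else the 1 with the smallest p. Not every gene selected in this way is named, so a gene left unnamed may have passed. Cd3e, Cd4, Col1a1, Cd68, Lyz2, Csf1r, Adgre1, C1qb, Apoe and S100a9 were added as markers after their values were seen. Positions and promoters are RefSeq's for GRCm38.p6, and overlaps of genes and shared transcript windows were read from GENCODE vM21. Sequences and plots used Python 3.11.15, matplotlib 3.10.9 and pandas 2.3.3. The steps were tested on simulated data.

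Alternatives were no filter, a pseudocount of 0.1, quantile normalization, rescaling to an equal sum, a replicate block, only the groups compared, array weights and leaving out each library. Leaving out Control 1 and ABL503 3 together, and summing Hspa1a and Hspa1b, were added after the data were seen. No pair of libraries was identical, and the correlations between libraries ran from 0.936 to 0.977.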

Additional observations from a re-analysis of the deposited data

Results flagged for a closer look

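Of 40 sets of 5 libraries (10 members in 4 groups), 4 had a library whose gap to its nearest neighbour exceeded 0.71 of the whole range, Dixon's 95% limit for 5 values. Chance alone gives that in about 1 of 20 sets. Hspa1b stood at 5.02 FPKM in Control 5, beside 3.07 in the next library. Hsp90aa1 stood at 844 FPKM in Pembrolizumab 5, beside 690 in the next, and Dnaja1 at 222 FPKM in the same library, beside 192. Hsf1 stood at 8.31 FPKM in ABL503 1, beside 13.5 in the next.

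The effect of ABL503 differed by whether pembrolizumab was given, in a test of the interaction itself with limma, for 3 members. The interaction on the log2 scale was -2.09 for Hsph1, -0.75 for Hsp90aa1 and -0.73 for Hsp90ab1. For Hsph1, libraries stood at 15.6 to 30.8 FPKM in Control, 26.9 to 55.2 in Pembrolizumab, 48.3 to 117 in ABL503 and 18.7 to 38.7 in the Combination.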

How the results depend on the processing

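For ABL503 against Control, the number of members that passed was 5 or 6 under all 18 alternatives, beside 6. For Pembrolizumab against Control (2 members) it was 1 without the filter, 0 with quantile normalization, 0 with only the groups compared, 1 without Control 1 and ABL503 3, and 1 to 2 when a library was left out. For the Combination against Control (1 member) it was 0 without the filter, 0 with only the groups compared, and 0 to 1 when a library was left out. For the Combination against ABL503 (8 members) it was 6 without the filter, 7 without Control 1 and ABL503 3, and 5 to 9 when a library was left out. For ABL503 against Pembrolizumab (7 members) it was 2 without the filter, 5 with quantile normalization and 3 with only the groups compared. It was 4 there without Control 1 and ABL503 3, and 1 to 7 when a library was left out. For the interaction (3 members) it was 1 without the filter, 1 without Control 1 and ABL503 3, and 2 to 4 when a library was left out. No member passed for the Combination against Pembrolizumab under any alternative. The cause of these changes was not tested, beyond the fewer samples and the larger number of genes tested that the settings bring by construction.

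With the replicate number as a block, 1 member passed for Pembrolizumab against Control, 6 for ABL503 against Pembrolizumab, and the block changed no other count of members. Over 30 pairs of libraries with the same number, deviations from group means correlated between -0.15 and 0.11 (median 0.03). Of these pairs, 2 were over 0.1. Libraries with different numbers were not compared in this way, so whether the numbers pair libraries was not tested.

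Reversed signs all concerned values near 0 that had passed nowhere. Hspa1a, Pembrolizumab against Control, ran from -0.15 to 0.35 when a library was left out, and Hsf1, ABL503 against Control, from -0.028 to 0.16. Hspa8 for Pembrolizumab against Control was 0.0383 with array weights, 0.0049 without Control 1 and ABL503 3, and -0.0794 to 0.0738 when a library was left out. Hspa8 for the Combination against Control was -0.0062 with quantile normalization, -0.013 with rescaling, and -0.0076 to 0.0573 when a library was left out. Hspa8 for the Combination against Pembrolizumab was -0.0088 with array weights and -0.0446 to 0.11 when a library was left out.

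Counts over all genes moved too: without the filter 42 genes passed for ABL503 against Control (73 with it), 321 for Pembrolizumab (655), 939 for the Combination (1484) and 271 for the Combination against ABL503 (534). Of the genes that passed for ABL503 against Pembrolizumab, 67.5% were higher, against 78.2% after rescaling and 57.5% after quantile normalization. For the Combination against ABL503 it was 50.6%, against 39.9% after rescaling and 55.9% after quantile normalization. Without counts, the sampling error of low values such as Hspa1a, at 1.08 to 18.2 FPKM, cannot be separated from the spread between libraries.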

Other observations

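Single libraries were the highest or lowest of their group for unequal numbers of chaperones, which was not tested. Pembrolizumab 5 was the highest of its group for 9 of 10 members, ABL503 2 for 7 and Combination 5 for 5. Pembrolizumab 4 was the lowest of its group for 5 members and ABL503 5 for 4. In Control no library was the highest, or the lowest, for more than 3 members, and the lowest values of the Combination were spread over libraries 1, 2 and 3 (3 members each) and 4 (1 member). Nothing in the labels sets these libraries apart from others of their group.

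Metallothioneins, which bind metal ions and are induced by metals and oxidants, followed another order of groups than the chaperones. Mt2 rose against Control by 1.62 after Pembrolizumab (SE 0.28, adjusted p = 0.00196 by limma) and by 1.08 in the Combination (SE 0.28, adjusted p = 0.0152). Srxn1, an enzyme that repairs oxidised peroxiredoxin, rose in the Combination by 1.91 (SE 0.38, adjusted p = 0.00282), and differed by 1.18 after ABL503 (SE 0.38, adjusted p = 0.213). The immediate early gene Ier3 rose by 1.14 after Pembrolizumab (SE 0.16, adjusted p = 0.000592), and its interaction was -1.62 (SE 0.23, adjusted p = 0.00461). It was 1 of 2 that rose there among 19 immediate early genes, where 5.55% of all genes passed. In the Combination against Control 1 rose and 5 fell, where 12.6% of all genes passed. Klf6 rose by 0.63 (adjusted p = 0.000983), while those that fell included Klf2 (-1.17, adjusted p = 0.00298), Nr4a1 (-0.98, adjusted p = 0.00694) and Fosl2 (-0.83, adjusted p = 0.0073).

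Of 22 tested genes of the endoplasmic reticulum and its stress response, 5 rose and 1 fell after Pembrolizumab against Control, where 5.55% of all genes passed. In the Combination 3 rose and 4 fell, where 12.6% of all genes passed. Against Control, Sdf2l1, a co-chaperone of that compartment, rose by 0.72 after Pembrolizumab (adjusted p = 0.00584) and by 0.62 in the Combination (adjusted p = 0.00726). Pdia4, a disulfide isomerase, rose by 0.66 (adjusted p = 0.0139) and 0.72 (adjusted p = 0.00418). Herpud1, which serves the degradation of misfolded proteins there, fell by 0.58 after Pembrolizumab (adjusted p = 0.0105) and by 0.48 in the Combination (adjusted p = 0.0171). Dnajb9, a J-domain protein of that compartment, fell in the Combination by 0.63 (adjusted p = 0.0159). These comparisons share the Control libraries.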
